A study of Bos taurus with 15 samples.

Results

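The comparison described here sets the middle region of engineered meniscal tissue grown in a mold with post anchors against the middle region of tissue grown in a mold without them. Its members are the 3 libraries labelled as anchored middle and the 3 labelled as unanchored middle, chosen from the treatment labels alone, 6 of the 15 libraries of the series. The cells are bovine meniscal fibrochondrocytes, and every tissue was collected at day 28, after 3 days in growth medium with 10% fetal bovine serum and 25 days in a chondrogenic medium with ascorbic acid at 50 µg/ml, dexamethasone and the growth factor TGF-β3 at 10 ng/ml. Both groups received the same media and growth factor, so the anchors are the labelled difference between them. The other groups, also of 3 libraries each, are the post regions of both kinds of molded tissue and cells in collagen with no mold. Nothing in the labels ties a replicate to its own tissue or animal, so the p-values measure the spread between these libraries only, which may be technical.

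The meniscus is a fibrocartilage: its cells make a dense network of type I collagen and, mostly toward the inner rim, the type II collagen and aggrecan of hyaline cartilage. When cells seeded in a collagen gel contract it, fixed points hold the gel back, and the gel between them comes under tension along the line that joins the anchors. Cells sense such tension through integrins and focal adhesions, and the cytoskeleton passes it on to regulators such as YAP and TAZ, while TGF-β drives both chondrogenic and contractile genes.

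RNA was primed at the poly(A) tail, and each value is a count of reads per gene, given below as CPM after trimmed-mean scaling of the libraries (TMM-CPM). Such 3′ counts are not divided by gene length, so levels are compared between libraries and not between genes. The anchored middle libraries 1, 2 and 3 held 7287672, 2986944 and 6706643 counts, and the unanchored middle libraries 6739123, 6301961 and 5666171, within a range of 2060781 to 7415701 over the series. Messenger RNA of the mitochondrial genome took 2.06% ± 0.294 of counts in anchored and 2.21% ± 0.144 in unanchored middle (SD, n = 3 each; two-sided exact permutation p = 0.5, where the smallest p this design allows is 0.1). All 11 markers of fibrochondrocytes that were checked had counts, among them COL1A1, SOX9, ACAN, THY1 and LUM. Of the markers of other cell types some were near 0 and some were not. The 6 libraries together held 3 counts of PECAM1, 1 of CDH5, 1 of SOX10, 1 of CKM, 9 of PTPRC and 0 of RGS5. From the lists of neural and adipocyte markers, however, S100B, which chondrocytes also make, reached 437 and FABP4 517 CPM of the library total. The summed level of 15 leukocyte markers ran from 18.4 to 21.8 CPM of the library total in anchored and from 17.7 to 21.4 in unanchored middle, that of 13 endothelial markers, mostly ERG, from 58.3 to 86 and from 75 to 92.7, and that of 7 mural cell markers from 80.7 to 98 and from 92.2 to 115. The sum of 10 Schwann and neural markers ran from 396 to 470 in anchored and from 354 to 410 in unanchored middle, and that of the 7 adipocyte markers in the table from 415 to 575 and from 388 to 479.

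Anchored middle library 2 stood apart from the other libraries of the comparison. The distance between a pair of libraries, the root mean square difference of log2 CPM over 11834 genes, was 0.464 and 0.51 between library 2 and the other anchored libraries and 0.459 to 0.524 between it and the unanchored ones. Leaving it out, the 6 pairs that cross the groups lay at 0.274 to 0.339. Pairs inside a group covered the same range: the 3 unanchored pairs lay at 0.287 to 0.344 and anchored libraries 1 and 3 at 0.3. The closest of all 15 pairs was anchored library 3 with unanchored library 2. A chi-square test of their counts over genes gave 1.87 per degree of freedom, where sampling noise alone gives about 1 if no read is a PCR copy. This pair crosses the groups, so the value cannot show whether the libraries of a group come from separate tissues. Each library was counted as 1 sample. Anchored middle library 2 had the fewest counts of the 6, and it was the highest or lowest of them in 59.8% of genes, against 21.5% to 37.6% for the others. The share was 67.9% among the 1558 genes with a mean of at least 100 TMM-CPM. The main results are therefore given with and without it, though not every value below is.

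**Figure D1:**
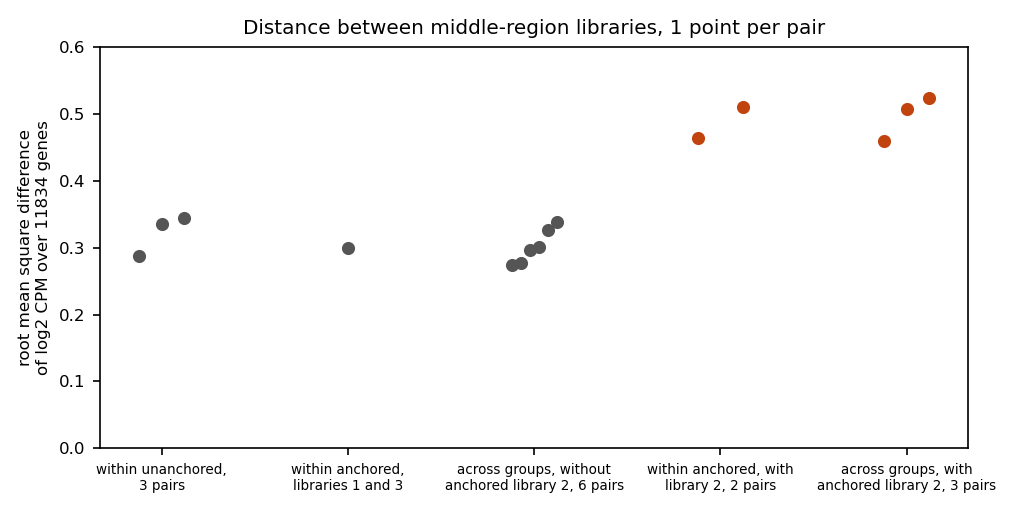
Each point is a pair of the 6 middle-region libraries, and the vertical axis is the root mean square difference of their log2 CPM over 11834 genes. Pairs with anchored middle library 2 (orange) lie at 0.459 to 0.524, and the other pairs, within and across groups, at 0.274 to 0.344.

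No gene passed the test between anchored and unanchored middle. Of 11834 genes, 0 had an adjusted p under 0.05 (0% called; edgeR quasi-likelihood test on all 15 libraries with Benjamini-Hochberg adjustment, smallest adjusted p = 1). At an unadjusted p under 0.05 there were 366 genes, 3.09% of those tested, 200 higher and 166 lower in anchored middle. DESeq2 and limma voom also called 0 genes, with 206 and 357 under an unadjusted 0.05. In this bulk RNA, fewer cells of a type and less RNA per cell cannot be told apart. A p that misses the threshold does not show that the groups are alike, so the intervals of the differences are given here. For 10786 genes (91.1%) the 95% interval of the fold change lay between -1 and 1 on the log2 scale, and among the 7740 genes with a mean of at least 10 TMM-CPM this held for 7705 (99.5%). Among the latter the median absolute log2 fold change was 0.08. The 3 anchored values lay above all 3 unanchored values in 445 genes (3.76%) and below them in 449 (3.79%), in all 7.55% of genes.

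Without anchored middle library 2 the count of genes passing the test stayed at 0, and 233 genes had an unadjusted p under 0.05, of which 142 were among the 366. That library was the highest of the 6 in 151 of the 200 higher genes and the lowest in 94 of the 166 lower ones. Leaving out anchored middle library 1 in its place gave 792 genes at an unadjusted p under 0.05 and 0 past the adjusted threshold (edgeR, smallest adjusted p = 0.0582). That smallest value belonged to ENSBTAG00000051412, which among the middle libraries was high only in anchored library 2. One setting made calls with all libraries: with no filter on low counts, 28 of 21304 genes passed, 27 of them higher in anchored middle. All 28 had also been tested with the filter, so they were not genes that the filter removes. Without the filter edgeR gave every gene the spread of the trend for its level (prior degrees of freedom infinite, against 13.6 with the filter). Without library 2 as well, 0 of those 28 passed and 1 other gene did.

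**Figure D2:**
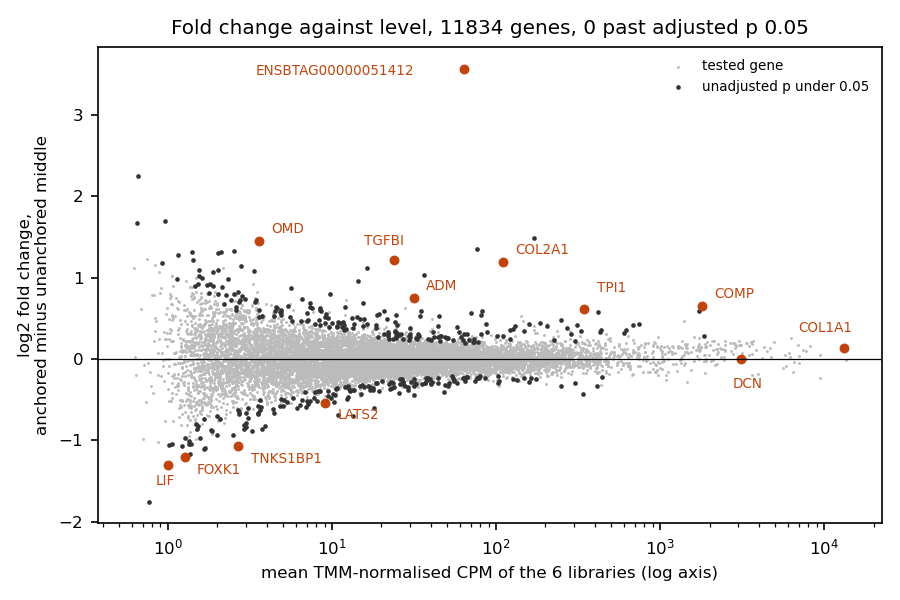
Each point is 1 of 11834 genes, with its mean TMM-CPM over the 6 libraries on a log axis and its log2 fold change, anchored minus unanchored middle. Dark points are the 366 genes with an unadjusted p under 0.05, and orange points are genes named in the text. The fold changes of 96.1% of genes lie within 0.5 of 0, and ENSBTAG00000051412 lies apart at 3.57.

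Among the small leucine-rich proteoglycans, which bind collagen fibrils and set their spacing, osteomodulin had the smallest p of all genes that were higher in anchored middle. OMD (ENSBTAG00000011836) stood at 4.40, 7.54 and 4.09 TMM-CPM in anchored libraries 1, 2 and 3 and at 1.84, 1.42 and 2.09 in the unanchored ones. All 3 anchored libraries lay above all 3 unanchored ones. OMD was among the genes of low level, with 82 counts in the anchored and 34 in the unanchored middle libraries together. The log2 fold change was 1.45 (SE 0.344, 95% interval 0.74 to 2.16, edgeR unadjusted p = 0.000323, adjusted p = 1), and it was 1.25 without anchored library 2. Of the other members, osteoglycin and decorin differed less between the groups, and the lowest log2 fold change of the list was -0.34. Osteoglycin, OGN, had 104.8, 122.5 and 107.1 TMM-CPM in anchored and 91.97, 107.3 and 74.65 in unanchored middle, values that overlap, with a log2 fold change of 0.28 (0.01 to 0.55). Decorin, DCN, the best known of the family, had 3107, 2985 and 3210 against 2994, 3315 and 2963, with a log2 fold change of 0.00 (-0.21 to 0.22). Of the 12 members tested of 13 listed, 0 passed, 7 had higher and 5 lower values, and the median log2 fold change was 0.00, as it was over all genes tested.

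Cartilage matrix genes had higher means in anchored middle, and the differences were smaller without 1 library. Of 15 members tested of 22 listed, 0 passed, and 14 had higher values in anchored middle, against 50.8% of all genes with higher and 49.2% with lower values. Their median log2 fold change was 0.26 with anchored library 2, the highest of the 6 in 11 members, and 0.14 without it. With that library the members ran from -0.15 to 2.25. The groups did not overlap in 2 members, both higher in anchored middle, against 3.76% of all genes tested in that direction. Type II collagen, COL2A1 (ENSBTAG00000013155), had 104.3, 276.6 and 85.5 TMM-CPM in anchored libraries 1, 2 and 3 and 77.2, 88.5 and 30.7 in the unanchored ones. Anchored library 2 was the highest, unanchored library 3 was the lowest, and the groups overlapped. The log2 fold change was 1.19 (95% interval 0.41 to 1.97, edgeR adjusted p = 1) with that library and 0.53 without it.

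Other genes of the list shared this highest library. COMP (ENSBTAG00000004630), a glycoprotein that binds collagen in cartilage and tendon, had 1481, 3219 and 1868 TMM-CPM in anchored and 1431, 1947 and 797.9 in unanchored middle, overlapping groups with a log2 fold change of 0.65 (0.06 to 1.24), or 0.27 without anchored library 2. Aggrecan, ACAN, the main proteoglycan of cartilage, had 141.1, 255.8 and 179.2 against 173.2, 186 and 85.1, a log2 fold change of 0.35 (-0.18 to 0.89), or 0.11 without that library. HAPLN1, the link protein that fastens aggrecan to hyaluronan, had 368.3, 672.5 and 429.1 against 361.1, 439.2 and 343.9, a log2 fold change of 0.35 (0.05 to 0.66), or 0.06 without it. Without unanchored library 3, the lowest in each, COMP stood at 0.37 and ACAN at 0.078. In COMP, ACAN and HAPLN1 alike anchored library 2 was the highest, and the remaining anchored libraries lay inside the range of the unanchored ones. COL11A2, which encodes a chain of the type XI collagen found inside type II fibrils, did not overlap: 1.33, 3.59 and 2.19 TMM-CPM in anchored and 1.13, 0.947 and 1.22 in unanchored middle, a log2 fold change of 0.90 (0.12 to 1.69), or 0.66 without anchored library 2. Lubricin, PRG4, had 213, 367.8 and 258.1 against 241.5, 296.3 and 243.8, a log2 fold change of 0.09 (-0.27 to 0.45) that was -0.15 without anchored library 2. Of the PRG4 counts, 80.6% sat in values that include reads shared with other genes. SOX9, the transcription factor that drives the cartilage program, had 137.7, 145.5 and 135.8 against 130.9, 131.3 and 109.3. Its anchored values all lay above the unanchored ones, by 0.17 (-0.04 to 0.38), or 0.088 without unanchored library 3, the lowest. RUNX1, another transcription factor of this lineage, lay the other way without overlap, at 2.80, 2.87 and 2.92 against 5.81, 3.31 and 3.49, a log2 fold change of -0.57 (-1.11 to -0.03) with and without anchored library 2. Of the 8 chondrocyte transcription factors tested of 12 listed, 0 passed and 6 had higher values.

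**Figure D3:**
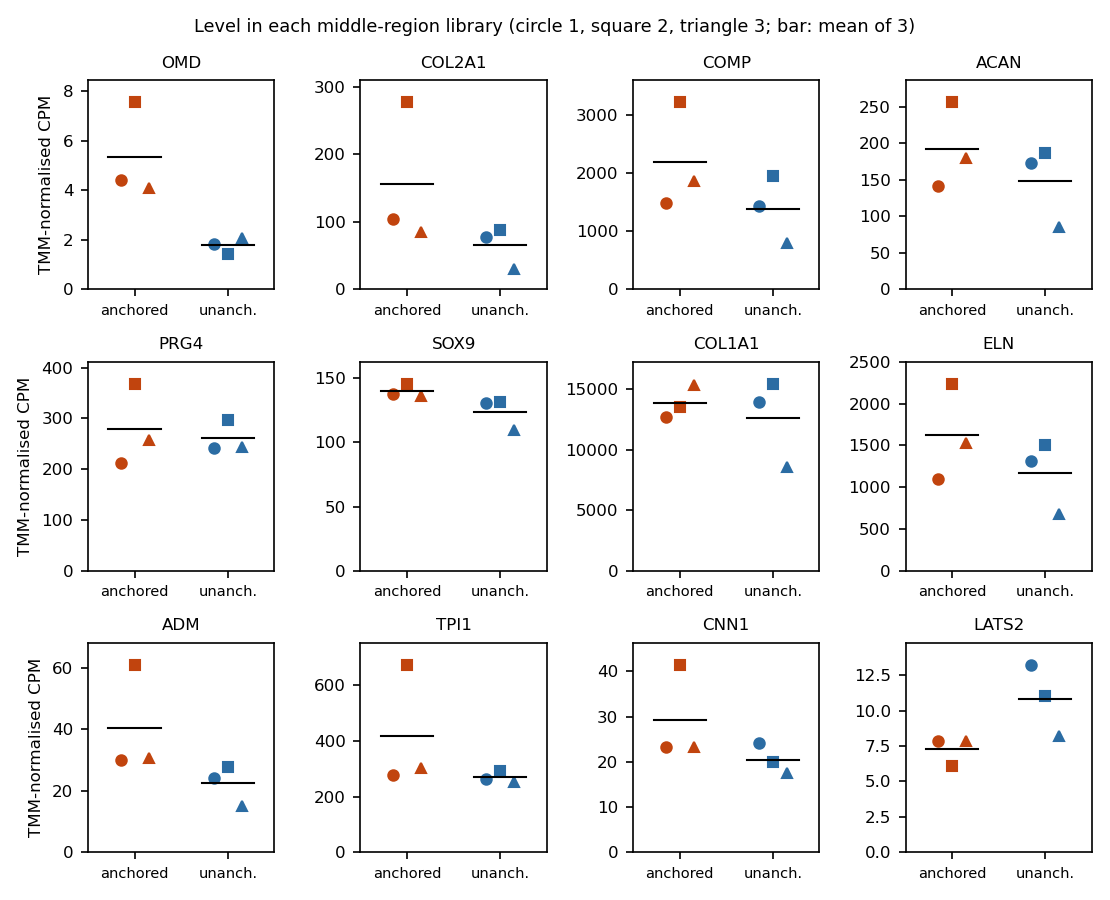
Each panel gives 1 gene, with the TMM-CPM of the 3 anchored (orange) and 3 unanchored (blue) middle libraries on an axis from 0; symbols mark libraries 1 (circle), 2 (square) and 3 (triangle), and bars are means. The groups do not overlap for OMD, SOX9, ADM and LATS2, and anchored library 2 is the highest of the 6 in each panel except COL1A1 and LATS2.

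The collagens of fibrous tissue differed little. COL1A1 (ENSBTAG00000013103), which encodes a chain of type I collagen, had 12669, 13544 and 15356 TMM-CPM in anchored and 13952, 15427 and 8539 in unanchored middle. Unanchored library 3 was the lowest and the groups overlapped, with a log2 fold change of 0.13 (-0.29 to 0.55). COL3A1, the partner of type I collagen in thin fibrils, had 3793, 3816 and 4014 against 3508, 4128 and 2561, a log2 fold change of 0.19 (-0.15 to 0.53). Reads shared with other genes enter 61.4% of the COL1A1 and 46.3% of the COL3A1 counts. Of the 6 chains of collagens I, III and V, all tested, 0 passed, and the median log2 fold change was 0.05. Of 12 other collagens tested of 16 listed, 0 passed, 6 lay higher and 6 lower, with a median of -0.01.

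Genes that process and join matrix fibres were also close. Of 21 collagen processing and crosslinking genes tested of 22 listed, 0 passed, and the median log2 fold change was 0.05. Lysyl oxidase, LOX, which crosslinks collagen and elastin, had 1928, 2786 and 2201 TMM-CPM in anchored and 1836, 2190 and 1884 in unanchored middle, a log2 fold change of 0.23 (-0.08 to 0.53), or 0.07 without anchored library 2. Elastin, ELN, had 1102, 2236 and 1535 against 1318, 1508 and 686.5, a log2 fold change of 0.47 (-0.06 to 1.00), or 0.17 without that library. The pattern was that of COMP, with anchored library 2 high and unanchored library 3 low, and ELN stood at 0.20 without the latter. Over the 16 elastic fibre genes, all tested, 0 passed and the median was 0.03. In the list of tendon and matricellular genes, 12 of 14 were tested, 0 passed and the median was 0.02. Its members include scleraxis, SCX, the tendon transcription factor, at 0.14 (-0.23 to 0.52), and tenascin C, TNC, a matrix protein of loaded tissue, at -0.08 (-0.40 to 0.24). TGFBI, a matrix protein that binds integrins, was the member farthest from 0, at 13.6, 73.6 and 17.2 TMM-CPM against 13.5, 18.1 and 6.28. Anchored library 2 was the only high value, and the log2 fold change of 1.22 (0.35 to 2.09) was 0.27 without it.

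Genes of tension sensing showed no change that passed the test. Contractile genes of smooth muscle and myofibroblasts had a median log2 fold change of 0.26 over 14 members tested of 15 listed, with 0 passed, 12 higher and 2 lower. Without anchored library 2, the highest of the 6 in 11 members, the median was 0.09. Calponin, CNN1, had 23.2, 41.3 and 23.2 TMM-CPM in anchored and 24.1, 19.9 and 17.4 in unanchored middle, overlapping groups with a log2 fold change of 0.42 (0.02 to 0.81), or 0.17 without that library. Smooth muscle actin, ACTA2, the marker of the myofibroblast state, had 958.7, 1284 and 965.2 against 1000, 913.5 and 732.7, a log2 fold change of 0.28 (-0.01 to 0.56), or 0.13 without it, with 85.9% of counts in values that include shared reads. The groups did not overlap in 3 of the 14 members tested, and in 7.55% of all genes tested. Enteric smooth muscle actin, ACTG2, and leiomodin, LMOD1, which nucleates actin, lay higher, with log2 fold changes of 0.50 (0.02 to 0.99) and 0.57 (-0.23 to 1.38). Desmin, DES, an intermediate filament of muscle, lay lower in all 3 anchored libraries than in any unanchored one, with a log2 fold change of -0.43 (-0.91 to 0.04).

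Integrins, the receptors that tie cells to the matrix, had a median log2 fold change of -0.01 over 14 members tested of 17 listed. Focal adhesion genes, which link integrins to actin, had a median of -0.04 over 21 tested of 22 listed, with 8 higher and 13 lower. Without anchored library 2 it was -0.06, with 1 higher and 20 lower, against 5927 higher and 5907 lower over all genes tested. The low values were mostly those of anchored library 1. Its median log2 deviation from the mean of the unanchored libraries was -0.169 over this list, against -0.01 in anchored library 3. At the post the median of the same list was 0.15. The 6 mechanosensor genes tested of 9 listed, among them the stretch-gated channel PIEZO1 at -0.00 (-0.27 to 0.26), had a median of 0.01. None of these 3 lists had a member that passed or that had an unadjusted p under 0.05. Targets and members of the Hippo pathway, the kinase cascade that restrains YAP and TAZ, had a median of -0.04 over 18 tested of 19 listed, and 0 passed. CCN2, the connective tissue growth factor and a standard YAP target, had 1952, 1769 and 1928 TMM-CPM in anchored and 1963, 2083 and 1700 in unanchored middle, a log2 fold change of -0.02 (-0.26 to 0.21). LATS2, the kinase that phosphorylates YAP, had the smallest p of the list and did not overlap, at 7.87, 6.11 and 7.88 against 13.2, 11.0 and 8.20. Its log2 fold change was -0.53 (-0.95 to -0.12), and -0.47 without anchored library 2.

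**Figure D4:**
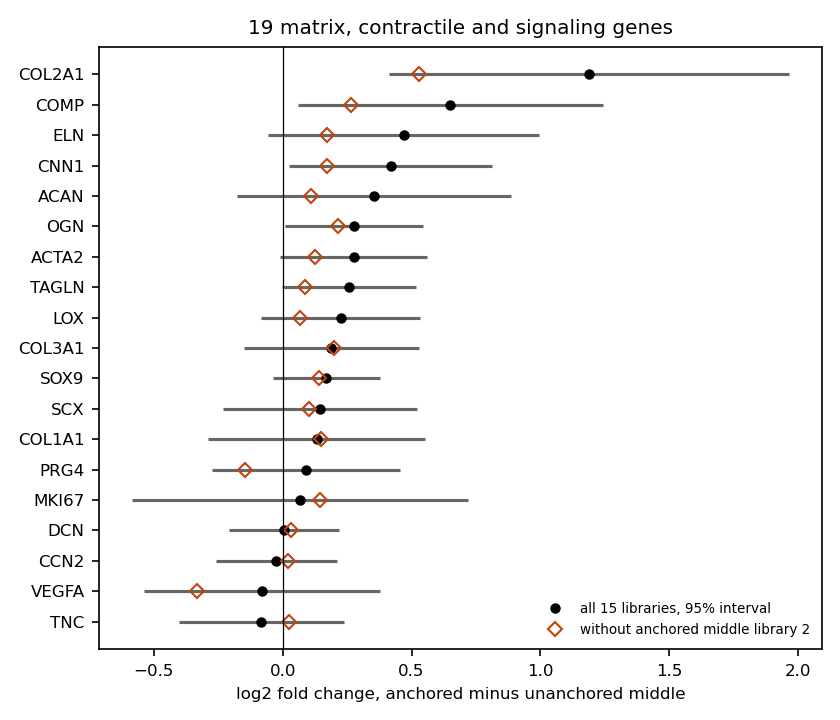
Points are log2 fold changes, anchored minus unanchored middle, of 19 matrix, contractile and signaling genes, bars are 95% intervals, and open diamonds are the values without anchored middle library 2. For 17 of the 19 the interval lies between -1 and 1, and the diamonds of COL2A1, COMP, ELN and CNN1 lie nearer to 0 than the points.

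In the growth factor pathways the list medians lay near 0, and single members lay farther out. Of 19 TGF-β genes tested of 20 listed, 0 passed, and the median log2 fold change was -0.05 with and without anchored library 2. INHBA, a subunit of the ligand activin A, did not overlap, at 56.3, 75.4 and 65.0 against 52.4, 56.2 and 39.1. It lay higher by 0.39 (0.05 to 0.73), and by 0.30 without anchored library 2. Another 3 of the 19 members lay lower without overlap. Over all genes tested, 3.76% lay higher and 3.79% lower without overlap. The 3 were TGIF1, a repressor of the pathway, at -0.22 (-0.43 to -0.01), the ligand TGFB1 at -0.11 (-0.43 to 0.21) and the receptor TGFBR1 at -0.08 (-0.27 to 0.11). The intervals of TGFB1 and TGFBR1 include 0. For BMP and Wnt genes the median was 0.02 over 19 tested of 30 listed, with 0 passed. ID1, a target of BMP signaling, had 139.7, 232.8 and 173.4 against 139.2, 153.7 and 108.8, a log2 fold change of 0.43 (0.13 to 0.72), or 0.22 without that library. Of the 19, 3 lay lower without overlap, against 3.79% of all genes tested. Among them were the Wnt ligands WNT9A and WNT5B, with log2 fold changes of -0.80 (-1.54 to -0.05) and -0.57 (-1.15 to 0.01). The IGF system had a median of 0.05 over its 10 genes, all tested, and 0 passed. Its member farthest from 0 was the growth factor IGF2, at 0.92 (-0.14 to 1.98), or 0.41 without anchored library 2.

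Glycolysis and hypoxia genes had higher means in the anchored group, with the high values in 1 library. Of 17 glycolysis genes tested of 19 listed, 0 passed, 14 had higher values and the median log2 fold change was 0.31. Anchored library 2 was the highest of the 6 libraries in 15 of the 17, and without it the median was 0.03. TPI1, the glycolytic enzyme triosephosphate isomerase, had 279, 671.7 and 304.9 TMM-CPM in anchored and 264.7, 291.6 and 253.4 in unanchored middle, a log2 fold change of 0.62 (0.18 to 1.05), or 0.11 without that library. SLC16A3, the transporter that exports lactate, had 22.6, 104.5 and 26.4 against 21.4, 27.1 and 17.4, a log2 fold change of 1.03 (0.28 to 1.79), or 0.15. Anchored libraries 1 and 3 thus lay within the unanchored range or just above it in both. ALDOC, an aldolase, was the member with the smallest p, at 40.8, 75.1 and 46.1 against 37.0, 37.9 and 32.6 without overlap. Its log2 fold change was 0.53 (0.19 to 0.87), or 0.28 without anchored library 2.

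Of 15 hypoxia-responsive genes tested of 20 listed, 0 passed, 12 had higher values, and the median was 0.21, or 0.03 without anchored library 2, the highest in 13 of them. Adrenomedullin, ADM, a vasodilator peptide, had 30.2, 60.7 and 30.5 TMM-CPM in anchored and 24.2, 27.8 and 15.2 in unanchored middle, with no overlap. Its log2 fold change was 0.75 (SE 0.221, 95% interval 0.29 to 1.21, edgeR adjusted p = 1), or 0.43 without that library. CA9, an enzyme that regulates pH under hypoxia, had 12.9, 43.5 and 13.7 against 10.6, 13.3 and 3.66, and VEGFA, the angiogenic growth factor, had 8.67, 19.8 and 12.3 against 11.8, 12.5 and 15.3. VEGFA had a log2 fold change of -0.08 (-0.54 to 0.38), and -0.33 without anchored library 2, with that library the highest of the 6. Cholesterol synthesis genes lay the other way. All 19 were tested, 0 passed, 0 had higher and 19 had lower values in anchored middle, with a median of -0.13. Anchored library 2 was the lowest of the 6 in 17 of them, and without it 7 had higher values and the median was -0.01. Anchored library 2 also had the lowest mitochondrial share of the 6, at 1.77%, and its AFP, a serum protein gene of the fetal liver, stood at 76.7 CPM of the library total, against at most 40.4 in unanchored middle. Most lists of markers of other tissues lay high in it too, by median log2 deviation from the mean of the unanchored libraries. The tested red blood cell markers (2) lay at 2.03 and the lung epithelial marker (1) at 1.29. Both were of low level there, at a sum of 6.47 and at 10.4 TMM-CPM. Skeletal muscle (1) lay at 0.862, also of low level there, at 3.23 TMM-CPM. Liver and serum markers (6) lay at 0.766, adipocyte (3) at 0.571 and leukocyte markers (5) at 0.521. The leukocyte sum was 19.4 TMM-CPM, against 14.3 to 18.5 in unanchored middle. Mural cell markers (5) lay at 0.498, but their sum of 93.4 TMM-CPM was inside the unanchored range of 91.67 to 110. Schwann and neural markers (3) lay at 0.408, and endothelial ones (2) at -0.0604. The part of these markers in the values of this library was not tested.

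**Figure D5:**
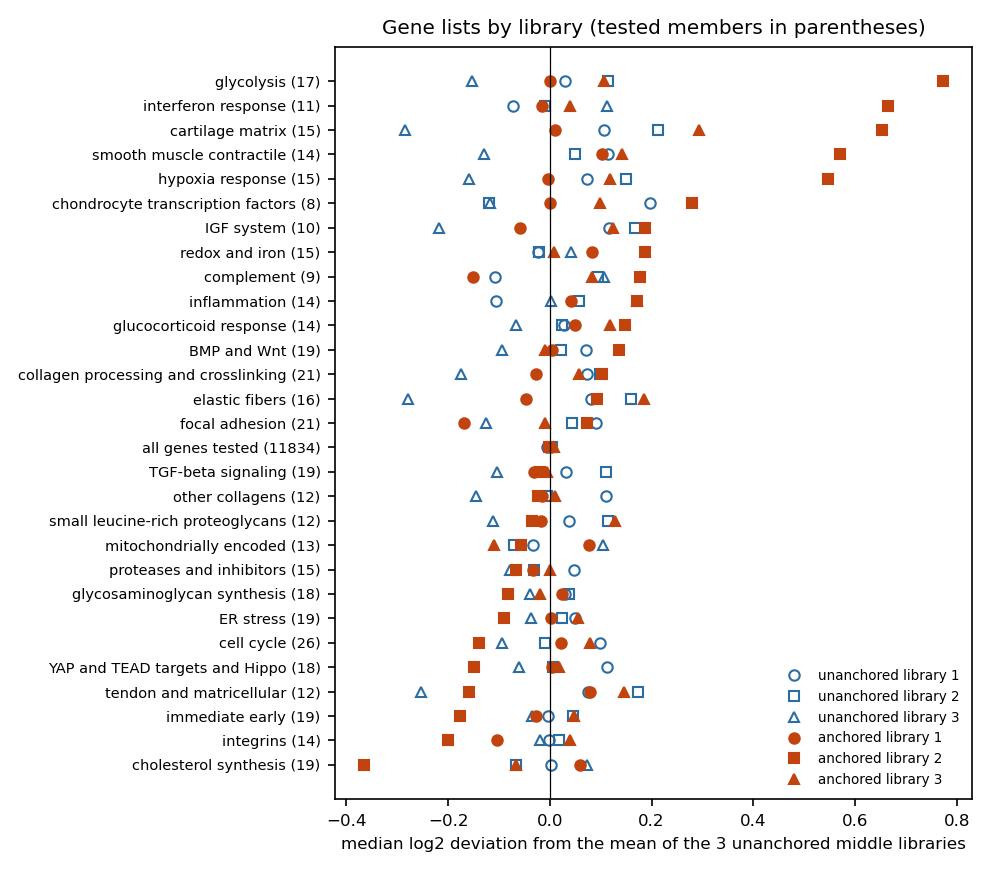
Each symbol gives the median, over the tested members of a list, of a library's log2 deviation from the mean of the 3 unanchored middle libraries. Anchored library 2 (filled square) lies at 0.773 for glycolysis and at -0.365 for cholesterol synthesis, outside the other libraries, whereas anchored libraries 1 and 3 (filled circle and triangle) lie among or near the unanchored ones (open symbols).

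Stress, inflammatory and proliferation genes held no call either. Of 14 inflammation genes tested of 19 listed, 0 passed, and the median log2 fold change was 0.11, or 0.12 without anchored library 2. CXCL8, a chemokine for neutrophils, had 1.87, 5.39 and 2.19 TMM-CPM in anchored and 0.709, 0.631 and 1.92 in unanchored middle, a log2 fold change of 1.31 (0.40 to 2.22), or 0.93 without that library. LIF, a cytokine of the interleukin 6 family, lay lower without overlap, at 0.801, 0.359 and 0.438 against 1.70, 0.947 and 1.74, a log2 fold change of -1.30 (-2.18 to -0.41), or -1.19. Both were among the genes of low level. Interferon response genes had a median of 0.23 over 11 tested of 21 listed, and 0.08 without anchored library 2. Among 19 immediate early genes tested of 20 listed, the first to respond to a stimulus, the median was 0.02. KLF4 of that list did not overlap, at 125, 120.7 and 122.9 against 134.9, 147.7 and 157.7, a log2 fold change of -0.25 (-0.46 to -0.05). Proteases and their inhibitors, 15 tested of 21 listed, had a median of -0.11, and 12 of them lay lower. The matrix protease gene MMP3 had too few counts to be tested, 42.5 in the 15 libraries. Cell cycle genes had a median of 0.01 over 26 members, all tested, and the proliferation marker MKI67 stood at 0.07 (-0.58 to 0.72). None of these lists had a member that passed.

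Outside the lists, the genes of smallest p kept their direction without anchored library 2, with 1 exception. PIGH, an enzyme subunit for the first step of GPI anchor synthesis, had 9.47, 8.98 and 8.17 TMM-CPM in anchored and 5.53, 5.84 and 5.76 in unanchored middle. The log2 fold change was 0.64 (SE 0.2, 95% interval 0.22 to 1.05), or 0.63 without that library. ZSCAN26, a zinc finger protein, had 9.74, 12.6 and 8.90 against 6.38, 7.42 and 6.10, a log2 fold change of 0.59 (0.21 to 0.97), or 0.49. The exception was ENSBTAG00000051412, a protein-coding gene with no symbol, at 6.01, 341.6 and 8.76 TMM-CPM against 7.79, 12.5 and 6.10. Only anchored library 2 was high, and the log2 fold change of 3.57 (1.67 to 5.47) was -0.27 without it.

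The 6 genes of smallest p among the lower ones were all free of overlap. Choosing genes by small p in these same libraries favors this, so it adds no support. Of all genes tested, 3.79% were free of overlap in that direction. TNKS1BP1, a partner of tankyrase, had 1.47, 1.44 and 2.19 TMM-CPM in anchored and 4.25, 3.94 and 2.79 in unanchored middle, a log2 fold change of -1.07 (-1.78 to -0.37), or -1.02 without anchored library 2. SPIRE1, which nucleates actin filaments, had 2.27, 2.16 and 2.33 against 3.68, 2.84 and 6.28, a log2 fold change of -0.88 (-1.47 to -0.29), or -0.86. Without unanchored library 3, the highest, SPIRE1 stood at -0.52. FOXK1, a forkhead transcription factor, had 0.934, 0.718 and 0.584 against 1.70, 1.89 and 1.74, a log2 fold change of -1.20 (-2.03 to -0.38), or -1.19. TNKS1BP1, SPIRE1 and FOXK1 were all among the genes of low level, so few counts lie behind each value. The remaining 3 of the 6 act in membrane traffic or the endoplasmic reticulum and were expressed at higher CPM with smaller differences. RAB11FIP5, an effector of recycling endosomes, had 46.3, 41.7 and 42.8 against 54.6, 54.0 and 54.8, a log2 fold change of -0.31 (-0.53 to -0.09). SNX16, an endosomal sorting nexin, had 24.4, 16.2 and 23.5 against 27.8, 29.8 and 31.0, a log2 fold change of -0.41 (-0.69 to -0.14). TOR1B, a torsin ATPase, had 44.0, 33.4 and 40.9 against 49.6, 50.8 and 47.8, a log2 fold change of -0.30 (-0.51 to -0.09). Without anchored library 2 the values were -0.29 for RAB11FIP5, -0.30 for SNX16 and -0.22 for TOR1B. For each of the 12 genes of smallest p, 6 higher and 6 lower, the edgeR adjusted p was 1, and genes chosen by small p tend to show fold changes that are too large.

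The middle region was set beside the post region of the same 2 kinds of tissue. Between anchored and unanchored post, 0 of 11834 genes passed as well (0%; edgeR), with 454 (3.84%) at an unadjusted p under 0.05. The difference between the regions in the effect of anchoring, tested as an interaction, passed for 0 genes (0%; edgeR), with 223 (1.88%) at an unadjusted p under 0.05. OMD had a log2 fold change of 1.45 in the middle and -0.20 at the post, a difference of 1.65 that did not pass (edgeR unadjusted p = 0.00452, adjusted p = 1). PIGH had 0.64 in the middle and -0.27 at the post, a difference of 0.90 that did not pass either. COL2A1 and COMP had higher values with anchors in both regions, by 1.19 and 0.65 in the middle and by 0.46 and 0.31 at the post, and none of these 4 values passed. The same libraries did show calls between regions: 227 genes (1.92%) passed between post and middle in anchored and 53 (0.448%) in unanchored tissue (edgeR), comparisons that share the middle libraries used here.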

How the data were processed

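Per the labels' protocols, regions were cut from the tissues, a Direct-zol kit gave the RNA, and an oligo-dT primer that carries a barcode and a unique molecular identifier (UMI) started the cDNA, which was then tagmented. STAR 2.7, SAMtools 1.21, featureCounts of Subread 2.1.1 and MultiQC 1.33 were used, per the submitters' processing notes. Genome build, annotation, counting settings and UMI collapse were not given in the sources used here, so PCR copies may count as separate reads. The authors deposited expected counts, of which 41.5% to 47.4% per library sit in values that are not whole (tolerance 1e-06), as when a read is shared among genes. The authors also deposited CPM, the count divided by the library total, and recomputing it gave the same values (largest difference 5.1e-11).

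Expected counts were rounded. The 92 ERCC spike-in sequences of 38093 features entered neither library sizes nor tests, filterByExpr with its defaults (count 10, total 15) kept 11834 genes, and TMM factors ran from 0.934 to 1.049. One edgeR 4.0.16 quasi-likelihood model (R 4.3.3) had 1 mean for each of the 5 groups and used all 15 libraries, which share 1 estimate of the spread, and contrasts were two-sided, adjusted over all genes by Benjamini-Hochberg at 0.05. Intervals cover 95%. Their standard error was derived from the test, as the absolute log2 fold change over the square root of the quasi-likelihood F statistic. Distances between libraries use log2 CPM with a prior count of 2. Alternatives were other scalings, filters, DESeq2 1.42.0, limma 3.58.1 voom, other sets of libraries, a replicate block and leaving out each library. The scripts were tested on simulated counts. The labels do not say whether equal replicate numbers pair the samples, and the main model did not pair them.

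Named genes were to be those past the threshold. With fewer than 6 in each direction, the 6 of smallest p in each were taken, with a panel of 21 genes, of which 20 could be tested. Some results withheld for evaluation are not reported here. Genes beyond these were picked with their values in view. The 40 gene lists hold 623 genes and are described by counts and medians, with no test of a list. Members and lists were chosen with earlier results of these data known. No coordinates or sequences were used, and symbols come from the table, where 17715 features carry none.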

Additional observations from a re-analysis of the deposited data

Results flagged for a closer look

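ERCC spike-in sequences, synthetic RNAs that are left out of every comparison above, had counts in all 6 libraries, above the 3 counts that a true 0 allows. Anchored middle libraries 1, 2 and 3 held 39, 38 and 43 spike-in counts, and unanchored middle libraries 1, 2 and 3 held 26, 49 and 34. Relative to library totals this was 8.16 ± 3.98 CPM in anchored and 5.88 ± 1.96 in unanchored middle (SD, n = 3 each; two-sided exact permutation p = 0.5, smallest possible 0.1). Whether spike-ins were added to these samples is not given in the sources used here.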

How the results depend on the processing

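The count of 0 genes between anchored and unanchored middle, in each direction, and the count of 0 for the interaction with region held under every alternative run except those without the low-count filter, and leaving out any of the 6 libraries gave 0 calls. Without the filter, 28 genes passed (27 higher, 1 lower, 3 in the interaction), and all 28 had been tested with the filter as well. Added after the data were seen, no filter and no anchored middle library 2 gave 1 gene between the groups (0 higher, 1 lower, ENSBTAG00000060382, annotated as ribosomal RNA, at -0.55) and 2 in the interaction, bta-mir-2904-1 and ENSBTAG00000056429. With the replicate number as a block, 0 genes passed in the comparison and in the interaction (465 at an unadjusted p under 0.05, smallest edgeR adjusted p = 0.247). Deviations of same-numbered libraries from their group means correlated at 0.048, 0.17 and -0.053, and those of other pairs at -0.17 to 0.13. With 3 libraries per mean, these values cannot decide whether equal numbers mark a shared tissue or batch, and the labels do not say. The count at an unadjusted p under 0.05 ran from 206 (DESeq2) to 792 (without anchored middle library 1).

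Of 631 values of single genes under alternatives, 603 kept their direction and side of the threshold, 7 passed only without the filter and 21 changed sign, in 9 genes. Leaving out 1 library, log2 fold changes ran from -0.27 to 4.21 for ENSBTAG00000051412, -0.084 to 0.30 for COL1A1, -0.15 to 0.25 for PRG4, -0.012 to 0.31 for SCX, -0.20 to 0.083 for TNC, -0.025 to 0.058 for DCN, -0.10 to 0.040 for CCN2, -0.33 to 0.19 for VEGFA and -0.24 to 0.31 for MKI67. Without the filter and library 2 the values were -0.26 for ENSBTAG00000051412, -0.14 for PRG4, 0.028 for TNC and 0.021 for CCN2. PRG4 was -0.042 with library weights in limma voom, also added later, and DCN -0.032 with library totals only. The cause of these sign changes was not tested. The interaction could not be fitted with only the 6 middle libraries. Intervals were wider for genes of lower level, and the part of depth in this was not tested: the median half-width of the 95% interval was 0.321 over all genes and 0.217 at 100 TMM-CPM or more.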

Other observations

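Several genes outside the lists, chosen after their values were seen, followed the pattern of a high anchored middle library 2. NDUFA4L2, a mitochondrial protein induced under hypoxia, had 74.3, 561.8 and 123.6 TMM-CPM in anchored libraries 1, 2 and 3 and 93.0, 121.2 and 46.0 in the unanchored ones. MIF, a cytokine, had 274.5, 865.4 and 378.2 against 332.8, 378.2 and 293.2, and CLEC3B, the plasminogen-binding protein tetranectin, 216.1, 417.1 and 241.7 against 184.2, 260.0 and 174.1. Without that library the log2 fold changes, anchored minus unanchored, were 0.18 for NDUFA4L2, -0.04 for MIF and 0.15 for CLEC3B.

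S100A1, a calcium-binding protein, lay apart in the anchored group with and without that library. It had 12.4, 32.7 and 14.2 against 9.21, 11.5 and 6.28, a log2 fold change of 0.96 (95% interval 0.33 to 1.58), or 0.55 without anchored library 2. It did not pass the test (edgeR adjusted p = 1). RAMP3, a partner of the adrenomedullin receptor, had lower but overlapping values, at 14.0, 4.31 and 10.2 against 13.3, 16.9 and 21.6. Its log2 fold change was -0.70, or -0.49 without anchored library 2.

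ENSBTAG00000051412, which only anchored middle library 2 held at a high level among the middle libraries, had 233.9, 165.7 and 152.8 TMM-CPM in the 3 no-mold libraries and 6.92 to 29.2 in the 6 post libraries. Over genes at 100 TMM-CPM or more, the mean distance of anchored library 2 was 0.413 to the no-mold, 0.383 to the anchored post and 0.418 to the unanchored post libraries. The other middle libraries lay at 0.385 to 0.405 from no mold and at 0.206 to 0.288 from the post groups. Reads shared with other genes enter 83.7% of the counts of this gene.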
